A study of Mus musculus with 2 samples.

Results

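The 10 genes described here encode plasma carrier and acute-phase proteins: Ttr, Ahsg, Fetub, Hpx, Hp, Cp, Ambp, Orm1, Vtn and Itih2. They were taken by name, with no measured value used in the choice, and all 10 were found among the 43346 mouse genes of the gene tables by their Ensembl identifiers. Total RNA of liver was sequenced in 2 libraries from healthy B6NCrl mouse embryos of embryonic day 11.5, each library from its own pool of male and female embryos. Replicate 1 pooled livers of 109 embryos, and the size of the replicate 2 pool is not stated in the sources used here. The libraries form 1 group with no other stage, tissue or genotype beside it, so what follows describes levels in 1 tissue and how far its pools lay apart, and no condition was tested. With 2 values an exact two-sided sign-flip test cannot go below p = 0.5, and none is quoted.

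The liver secretes most proteins of blood plasma, and the cells that do so in the adult are hepatocytes, which arise from the hepatoblasts of the fetal liver. Carrier proteins hold hormones, vitamins, haem, haemoglobin or metals in the blood. Acute-phase proteins are those whose plasma level changes in inflammation, mainly through interleukin 6, STAT3 and C/EBP factors acting on hepatocytes. Among the genes here, Hp, Hpx, Cp and Orm1 are textbook genes that rise in that response, while Ttr and Ahsg are known in humans as proteins that fall.

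Levels are in TPM, the share of a transcript among all transcripts, which is a level per length and so allows genes to be compared with each other. Means are given with the SD over the 2 libraries. A gene was called detected at 1 TPM or more in both libraries. The depth was 34344230 estimated counts for replicate 1 and 31477397 for replicate 2. Spike-in control RNAs took 14.6% of TPM in replicate 1 and 11.1% in replicate 2, and this share lowers the TPM of every mouse gene in a library. All 11 hepatoblast markers were detected, led by Afp (5078 ± 537 TPM), the fetal counterpart of albumin, and lowest for the liver transcription factor Hnf4a, at 14.4 TPM in replicate 1 against 16.1 TPM in replicate 2. Erythroid RNA was also present: all 8 erythroid markers were detected, from the embryonic globin Hbb-y (12181 and 11493 TPM) to the erythropoietin receptor Epor (93.2 and 96.6 TPM). In bulk tissue, fewer cells of a type and less RNA per cell cannot be told apart.

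The levels ran from rank 200 among 21474 protein-coding genes (Ambp) to no read at all (Orm1). Detected were 7 of the 10, against 56.6% of 21474 protein-coding genes. The same share is the one to set beside the number detected in each list below. Together the 10 genes held 1226 TPM in replicate 1 against 1345 TPM in replicate 2. Of this, Ambp, Itih2, Vtn and Ttr supplied 90.2% in replicate 1 and 90.4% in replicate 2. Ambp alone supplied 45.8% and 44.7%. The other end, Hp, Cp, Fetub and Orm1, added up to 9.56 TPM in replicate 1 against 9.73 TPM in replicate 2. Set against Alb, the gene of serum albumin (587 TPM in replicate 1 against 631 TPM in replicate 2), the sum of the 10 genes came to 209% in replicate 1 and 213% in replicate 2.

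Of 9 neighbours in the order of mean TPM, 6 were ordered, meaning that both libraries gave the same order, that the deposited credibility intervals were apart in both, and that the mean log2 ratio exceeded the gap between the libraries. Mean levels were 582 ± 28.2 TPM for Ambp, 217 ± 27.7 TPM for Itih2, 184 ± 20.99 TPM for Vtn and 178 ± 0.424 TPM for Ttr (SD, n = 2 each). They were 62.55 ± 4.59 TPM for Ahsg, 52.7 ± 2.02 TPM for Hpx, 9.00 ± 0.0849 TPM for Hp, 0.36 ± 0.240 TPM for Cp and 0.285 ± 0.205 TPM for Fetub, with Orm1 at 0. From the top, Ambp stood above Itih2, Itih2 above Vtn, Ttr above Ahsg, Ahsg above Hpx, Hpx above Hp and Hp above Cp. At gene level Vtn and Ttr were not told apart, with log2 ratios of Vtn over Ttr of -0.07 in replicate 1 and 0.16 in replicate 2. The protein-coding form Vtn-201 alone had 126.1 TPM in replicate 1 and 143.3 TPM in replicate 2, below Ttr in both. Cp and Fetub, whose order turned round between the libraries, were not told apart either, nor were Fetub and Orm1. The deposited interval belongs to a posterior mean and not to the TPM itself, which lay outside it for 4 of the 10 genes in each library. These were Ambp and Itih2, where the TPM lay just above it, and Cp and Orm1, which were not detected. Among all detected mouse genes the TPM lay outside for 4.22% in replicate 1 and 5.45% in replicate 2.

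**Figure D1:**
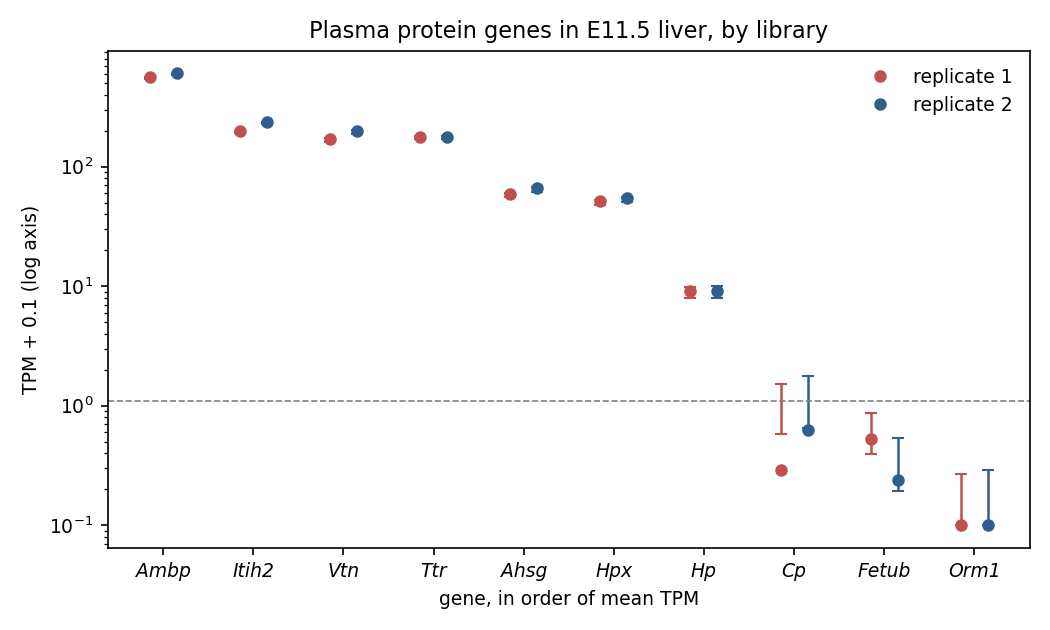
TPM of the 10 genes in each library on a log axis, with 0.1 added so that zeros can be drawn. Points are the deposited TPM of replicate 1 (red) and replicate 2 (blue), bars the deposited credibility intervals around the posterior mean, and the dashed line 1 TPM. Ambp stands alone at the top at 562 and 602 TPM, Ttr and Vtn lie side by side, and Cp, Fetub and Orm1 fall under the line.

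Sequence around the RefSeq start of 4 of the genes is shown because they form pairs that differ in level. Ambp and Itih2, whose products join in 1 protein complex, differed 2.69-fold. Ahsg and Fetub, neighbours on chromosome 16 in the same orientation, differed 175-fold on the TPM + 0.1 scale, with few Fetub reads. Each sequence runs from 250 bases before to 50 bases after a gene start of RefSeq on build GRCm38.p6. It is read 5′ to 3′ on the gene's strand. The RefSeq start lies inside the gene as GENCODE M21 draws it, 627 bases from the outer start in Ambp, 713 in Itih2, 738 in Ahsg and 48 in Fetub, so the windows of Ambp, Itih2 and Ahsg fall wholly within the annotated gene. Capitals mark a C/EBP-type match (TTNNGCAA on either strand) in Itih2 and Ahsg and a TATA-type match (TATAAA on the gene's strand) in Fetub, and Ambp held no match.
Ambp, chr4:63154123-63154422, minus strand: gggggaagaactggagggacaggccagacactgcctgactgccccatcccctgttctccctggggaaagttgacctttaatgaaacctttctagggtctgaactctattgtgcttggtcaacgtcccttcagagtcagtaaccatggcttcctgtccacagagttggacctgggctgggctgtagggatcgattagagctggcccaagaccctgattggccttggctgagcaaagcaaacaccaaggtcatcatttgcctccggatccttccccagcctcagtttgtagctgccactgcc
Itih2, chr2:10130634-10130933, minus strand: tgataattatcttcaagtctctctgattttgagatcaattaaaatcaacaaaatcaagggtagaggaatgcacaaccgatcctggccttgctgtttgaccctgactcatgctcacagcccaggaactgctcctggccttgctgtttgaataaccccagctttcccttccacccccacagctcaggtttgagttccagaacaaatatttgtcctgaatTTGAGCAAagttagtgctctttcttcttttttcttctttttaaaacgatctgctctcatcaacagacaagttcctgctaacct
Ahsg, chr16:22891765-22892064, plus strand: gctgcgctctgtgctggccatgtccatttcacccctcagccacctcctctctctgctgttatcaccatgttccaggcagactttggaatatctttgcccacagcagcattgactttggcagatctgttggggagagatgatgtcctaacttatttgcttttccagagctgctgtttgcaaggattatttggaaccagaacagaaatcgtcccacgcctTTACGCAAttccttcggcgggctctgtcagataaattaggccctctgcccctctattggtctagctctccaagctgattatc
Fetub, chr16:22918132-22918431, plus strand: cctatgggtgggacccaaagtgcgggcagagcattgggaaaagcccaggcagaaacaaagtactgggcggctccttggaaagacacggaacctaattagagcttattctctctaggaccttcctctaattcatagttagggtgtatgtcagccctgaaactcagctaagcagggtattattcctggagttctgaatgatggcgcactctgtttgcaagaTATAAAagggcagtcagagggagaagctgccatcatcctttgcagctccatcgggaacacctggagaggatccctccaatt

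RefSeq promoters were matched for 7 of the genes, with 9 starts in all, since Cp and Fetub had 2 starts each. Hp and Orm1 were not matched. Starts on chromosome 18, where Ttr lies, were left out of the search among the 10 genes, so the motif counts do not cover Ttr. The C/EBP-type letters were present at 4 of the 9 starts, 1 each of Ahsg, Cp, Hpx and Itih2. They stood in 10.8% of all 32851 promoters of this length. In Itih2 the match began 33 bases before the start, in Ahsg 32 bases, in Cp 70 bases and in Hpx 200 bases. The TATA-type letters stood in Cp, Fetub and Vtn and in 8.32% of all promoters, beginning 25 bases before the second Cp start, 31 bases before the first Fetub start and 135 bases before the Vtn start. The STAT-type letters (TTCNNNGAA, either strand) stood in Vtn, 36 bases after its start, and in 8.30% of promoters. The HNF1 core (TTAATNATT, either strand) stood in Cp and in 1.47% of promoters, and the FOXA-type letters (TGTTTAC, either strand) at the second Fetub start and in 3.65%. The HNF4-type letters (CAAAGTCCA, either strand) were found in none of the 9, and in 0.475% of promoters. No match of 1 motif overlapped a match of another in these promoters. A match describes letters only.

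Ttr, transthyretin, carries thyroid hormone and binds the retinol carrier Rbp4 in plasma. It lies on chromosome 18 (20665280 to 20674321, plus strand, ENSMUSG00000061808.3) and stood at 177.6 TPM in replicate 1 against 178.2 TPM in replicate 2 (5134 and 4495 estimated counts). Its partner Rbp4 was higher, at 1059 TPM in replicate 1 against 1140 TPM in replicate 2, so that Rbp4 exceeded Ttr 6.17-fold. Ttr was also below Alb in both libraries, by 3.42-fold. Of the 5 genes of retinol and thyroid hormone transport 3 were detected: Ttr, Rbp4 and Stra6, the cell-surface receptor for retinol-loaded Rbp4 (5.47 and 4.72 TPM). The thyroxine-binding globulin gene Serpina7 stayed under 1 TPM with 27 and 44 estimated counts, and the endocytic receptor Lrp2 had 0.17 and 0.22 TPM (68 and 66 estimated counts). Ttr and Rbp4 are also known from the yolk sac, and Ttr from the choroid plexus. Of 6 choroid plexus markers 1 was detected (Clic6, 1.12 and 1.30 TPM), Otx2 was at 0 in both libraries, and the list summed to 1.78 TPM in replicate 1 against 2.98 TPM in replicate 2. Of 6 markers of visceral yolk sac and kidney tubule 1 was detected (Rhox5, 9.69 and 9.45 TPM), Slc22a6 was at 0, and the list summed to 11.2 TPM in replicate 1 against 10.5 TPM in replicate 2.

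The fetuins are close relatives with a wide contrast in level. Ahsg, fetuin-A, keeps calcium phosphate soluble in plasma, and Fetub, fetuin-B, is known in mice for inhibiting an egg protease and so protecting the egg coat. Ahsg (chromosome 16, 22891277 to 22899449, plus strand, ENSMUSG00000022868.5) stood at 59.3 TPM in replicate 1 against 65.8 TPM in replicate 2, with 2105 and 2038 estimated counts. Fetub (22918334 to 22939778, plus strand, ENSMUSG00000022871.8) begins 18884 bases beyond the end of Ahsg and had 0.43 TPM in replicate 1 against 0.14 TPM in replicate 2, from 14 and 4 estimated counts. The libraries were each clear on the direction, with Ahsg above Fetub 112-fold in replicate 1 and 274-fold in replicate 2 on the TPM + 0.1 scale, though the size rests on few Fetub reads. Next on the same chromosome come Hrg, the histidine-rich glycoprotein, with 7 and 1 estimated counts (0.17 and 0.03 TPM), and the kininogens, precursors of bradykinin. Kng2 had 0.20 TPM in replicate 1 against 0.22 TPM in replicate 2 (7.70 and 7.26 estimated counts), while Kng1 had 68.9 TPM and 81.7 TPM. So across 190802 bases, 2 of 5 neighbouring genes of 1 superfamily, the outermost ones, were detected and the 3 between them were not. Reads shared between Kng1 and Kng2, which are near copies, could have been split by the counting, so their single levels are uncertain.

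Hpx and Hp clear haem and free haemoglobin. Hpx, hemopexin (chromosome 7, 105591613 to 105600137, minus strand, ENSMUSG00000030895.8), stood at 51.3 TPM in replicate 1 against 54.1 TPM in replicate 2. Hp, haptoglobin (chromosome 8, 109575128 to 109579172, minus strand, ENSMUSG00000031722.9), had 8.94 TPM and 9.06 TPM from 287 and 254 estimated counts. Hpx was thus the higher of the pair, by 5.68-fold in replicate 1 and 5.92-fold in replicate 2. Of the receptors that take up their complexes, Lrp1, which takes up haem with hemopexin, had 27.0 and 29.4 TPM, whereas Cd163, the macrophage receptor for haemoglobin with haptoglobin, had 2 and 0 estimated counts. All 7 macrophage markers were detected, from Adgre1 (5.77 and 8.16 TPM) to C1qb (62.0 and 62.5 TPM). Of the 8 genes of haemoglobin and haem clearance 7 were detected, Cd163 being the exception. Downstream of uptake, the haem oxygenases Hmox1 (60.4 TPM in replicate 1 against 75.2 TPM in replicate 2) and Hmox2 (50.5 and 60.7 TPM) and the biliverdin reductases Blvra (53.1 and 62.9 TPM) and Blvrb (426 and 456 TPM) exceeded Hp. Within this liver, which held abundant globin RNA, the level of Hp was 1.52% of Alb in replicate 1 and 1.44% in replicate 2.

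Cp, ceruloplasmin, is the copper-holding ferroxidase of plasma. On chromosome 3 (19957054 to 20009145, plus strand, ENSMUSG00000003617.12) it had 0.19 TPM in replicate 1 against 0.53 TPM in replicate 2, from 11 and 7 estimated counts spread over different annotated transcripts. Its deposited posterior mean was 0.92 and 1.10 TPM, above the TPM in each library. It overlaps Hps3 on the opposite strand (8.05 and 11.1 TPM), and the sources do not state whether the counting used strand, so the few Cp reads and those of Hps3 cannot be told apart. The membrane-bound relative Heph, hephaestin, was higher, at 4.03 TPM in replicate 1 against 4.81 TPM in replicate 2, and Hephl1 had no count in either. Of the 8 genes of the copper and ferroxidase list 6 were detected, the exceptions being Cp and Hephl1. The copper chaperone Atox1 led (206 and 196 TPM), followed by the iron exporter Slc40a1 (63.4 and 79.9 TPM), the copper importer Slc31a1 (37.1 and 45.8 TPM) and the copper pump Atp7b (18.8 and 20.2 TPM), which loads copper onto ceruloplasmin in the adult liver.

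Ambp was the most abundant of the 10 genes. It encodes a precursor that is cut into alpha-1-microglobulin, a lipocalin, and bikunin, the protease-inhibiting chain of the inter-alpha-inhibitor. Ambp (chromosome 4, 63143275 to 63154799, minus strand, ENSMUSG00000028356.4) had 562 TPM in replicate 1 against 602 TPM in replicate 2, rank 200 of 21474 protein-coding genes. That was 95.8% of Alb in replicate 1 and 95.3% in replicate 2. Itih2, heavy chain 2 of the same complex (chromosome 2, 10094593 to 10131396, minus strand, ENSMUSG00000037254.14), had 197.5 TPM in replicate 1 against 237 TPM in replicate 2. Ambp exceeded Itih2 by 2.85-fold in replicate 1 and 2.54-fold in replicate 2 per length, although their estimated counts were close (16960 and 15848 for Ambp, 15289 and 15993 for Itih2), Itih2 being the longer transcript.

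Itih2 led its own family. Itih3 followed with 44.2 TPM in replicate 1 against 52.2 TPM in replicate 2, then Itih1 with 12.4 and 14.0 TPM, Itih5 with 5.86 and 6.30 TPM and Itih4 with 2.68 and 3.66 TPM. Itih2 was above each of these in both libraries, by 4.49-fold over Itih3, 16.3-fold over Itih1, 35.0-fold over Itih5 and 66.9-fold over Itih4. The products of Itih1, Itih2 and Itih3 attach covalently to bikunin, and these 3 genes summed to 254 TPM in replicate 1 against 303 TPM in replicate 2, of which Itih2 gave 77.7% and 78.1%. Ambp was 2.21 times that sum in replicate 1 and 1.99 times in replicate 2. The transcript of Itih2 was 62.2% identical with that of Itih1, 63.1% with Itih3 and 63.2% with Itih4, and the longest run of identical bases was 14. Itih5 lies 22174 bases from Itih2 on the opposite strand. Tnfaip6, which transfers heavy chains to hyaluronan, had 1.44 and 1.46 TPM, and the hyaluronan synthases Has1 (15 and 9 estimated counts), Has2 (43 and 42) and Has3 (8 and 9) stayed under 1 TPM in both libraries. Of the 10 genes of the list 7 were detected.

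**Figure D2:**
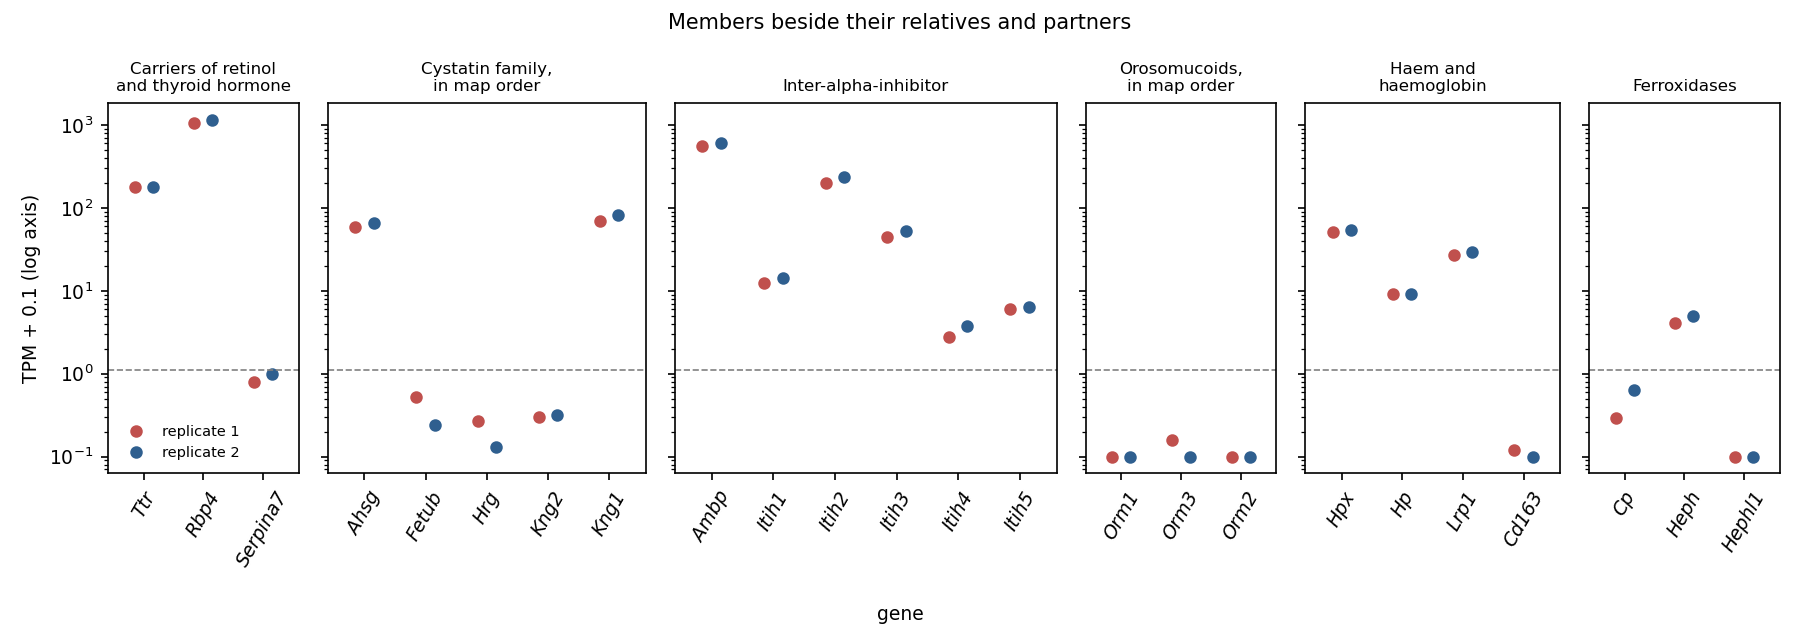
TPM with 0.1 added, on a log axis, of 6 groups of relatives and partners, with replicate 1 in red, replicate 2 in blue and the dashed line at 1 TPM. Within the cystatin family in map order Ahsg and Kng1 stand high and the 3 genes between them fall under the line, Itih2 tops the Itih genes, and Orm1 and Orm2 lie at 0.

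Orm1, orosomucoid or alpha-1-acid glycoprotein, binds drugs and lipids in plasma, and no read was assigned to it in either library. It lies on chromosome 4 (63344560 to 63348163, plus strand, ENSMUSG00000039196.2), 189760 bases from Ambp, a lipocalin gene on the same chromosome. The upper limit that 0 counts allow, the level of 3 counts, was 0.172 TPM in replicate 1 against 0.197 TPM in replicate 2, so Orm1 was not detectable at this depth. The same held for its copies: Orm2 had 0 counts in both libraries, and Orm3 had 1 and 0. Orm1 transcripts were 91.0% identical to Orm2 and 86.5% to Orm3, with runs of up to 141 identical bases, so single reads between the 3 copies are uncertain, while their sum was 1 estimated count in replicate 1 and 0 in replicate 2. Other lipocalins were present. Apom, which carries sphingolipid on lipoproteins, had 328 TPM in replicate 1 against 369 TPM in replicate 2, and Lcn2, a siderophore binder, 6.12 and 7.94 TPM, while Ptgds, the prostaglandin D synthase gene, had 1 and 0 estimated counts. Of 8 plasma lipocalins 4 were detected, among them Rbp4 and Ambp.

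Vtn, vitronectin, is an adhesive plasma protein that binds integrins. On chromosome 11 (78499091 to 78502324, plus strand, ENSMUSG00000017344.4) it had 169 TPM in replicate 1 against 199 TPM in replicate 2. It was above Fn1, fibronectin (133.9 and 136.5 TPM), by 1.27-fold in replicate 1 and 1.46-fold in replicate 2. These gene levels sum all annotated transcripts. The protein-coding form Vtn-201 alone had 126.1 TPM in replicate 1, below the Fn1 gene level, and 143.3 TPM in replicate 2, above it. The order of the gene levels held per length and turned round on estimated counts, where the longer Fn1 transcript gathers more reads. Among its receptors Itgb1 led with 148 and 177 TPM, followed by Itgav (29.1 and 27.6 TPM), Vtn standing 6.46-fold above Itgav. Of the 9 genes of the list 7 were detected, and Plau, the urokinase gene (39 and 20 estimated counts), was among those under 1 TPM in both libraries.

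Among the detected genes, only Ambp, Itih2 and Vtn have more than 1 annotated transcript, so only they could show which form was used. Ambp, Itih2, Vtn, Fetub and Cp have 2 or more transcripts in the authors' annotation, and the remaining genes have 1. The main transcript was the same in both libraries for 4 of the 5, Cp being the exception. Among the detected ones it was 3 of 3, beside 90.5% of 9290 detected genes. Ambp-201 carried 100% of Ambp and Itih2-201 99.9% of Itih2 in both libraries. In Vtn, Vtn-201, the protein-coding form, carried 74.4% in replicate 1 and 72.0% in replicate 2, and Vtn-204, a 678-base form with a retained intron, 25.0% and 27.2%. Vtn-204 rested on 632 and 707 estimated counts (42.3 and 54.2 TPM), so the share was about as large in both pools. Of the 16 annotated Cp transcripts 3 had any estimated count in replicate 1 and 4 in replicate 2, none above 10. The main form was Cp-214 in replicate 1, on 1 estimated count, and Cp-215 in replicate 2, on 3. These forms are short, 484 and 573 bases, and shares are per length. The 4504-base Cp-204 held 9.97 estimated counts in replicate 1 but a share of 46.15%, below the 52.96% of Cp-214. So few counts cannot show a change of form.

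**Figure D3:**
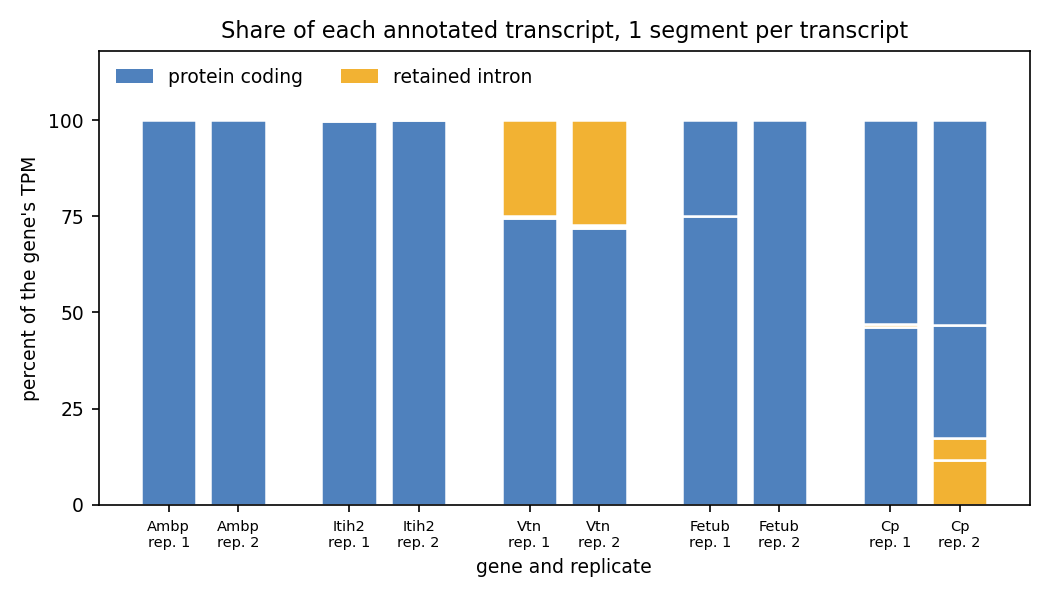
Percent of each gene's TPM carried by its annotated transcripts, 1 segment per transcript, with the libraries side by side. Blue marks protein-coding forms and yellow forms with a retained intron. Vtn shows a yellow segment of 25.0% in replicate 1 and 27.2% in replicate 2. The segments of Cp differ between the libraries but rest on 11 and 7 estimated counts.

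Of the 10 genes, 7 had a mean of 10 or more counts. None of these lay 2-fold or more apart between the pools, beside 4.28% of the 16558 mouse genes with that mean. With a share this low, 0 of 7 does not set these genes apart. The share was not matched for depth, and the 7 genes had 254 or more estimated counts in each library. Ttr was higher in replicate 1 by a log2 ratio of 0.08 (95% exact binomial interval 0.02 to 0.14). It was the only one of the 7 with an interval above 0, beside 17.9% of the 16558 mouse genes. Itih2 (-0.18, interval -0.21 to -0.14) and Vtn (-0.12, interval -0.17 to -0.07) were lower in replicate 1, the 2 of 7 with an interval below 0, beside 21.1%. Scaling by spike-ins instead of TMM shifted every log2 ratio by -0.49, which put the intervals of all 7 below 0 and turned Ttr to -0.41, and in TPM, where spike-ins count too, Ttr was at -0.005. By TMM, Ambp (-0.01), Ahsg (-0.07), Hpx (0.01) and Hp (0.06) had intervals that held 0. The log2 ratios were taken on estimated counts scaled by TMM factors, and the intervals cover counting error only and leave out the spread between embryos, so they describe these libraries and not a condition. The median over these 7 genes was -0.01, beside -0.003 over the 16558 mouse genes of that mean count and -0.03 over the 11 hepatoblast markers. Fetub (14 and 4 estimated counts) had a log2 ratio of 1.58 with an interval of 0.02 to 3.76, from a mean under 10 counts. The depth cannot show whether Cp differed (interval -0.96 to 2.15).

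Marker lists of other cells were set beside these differences. All 7 endothelial and mesenchymal markers were detected, from Col3a1 (237 and 241 TPM) to Des (10.1 and 11.6 TPM). Summed TPM of the hepatoblast markers was 10894 in replicate 1 and 12113 in replicate 2. All 7 heart muscle markers were higher in replicate 1, with a summed 289 TPM in replicate 1 against 124 TPM in replicate 2, and a median log2 ratio of 1.53, from Myl7 (119 and 58.9 TPM) to Myh7 (2.84 and 0.90 TPM). Whether the heart markers have a part in the differences of Ttr, Itih2 and Vtn between the pools was not tested. No defining heart gene was at 0, and Nppa, the natriuretic peptide of the atrium, had 25.1 TPM in replicate 1 against 5.79 TPM in replicate 2.

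**Figure D4:**
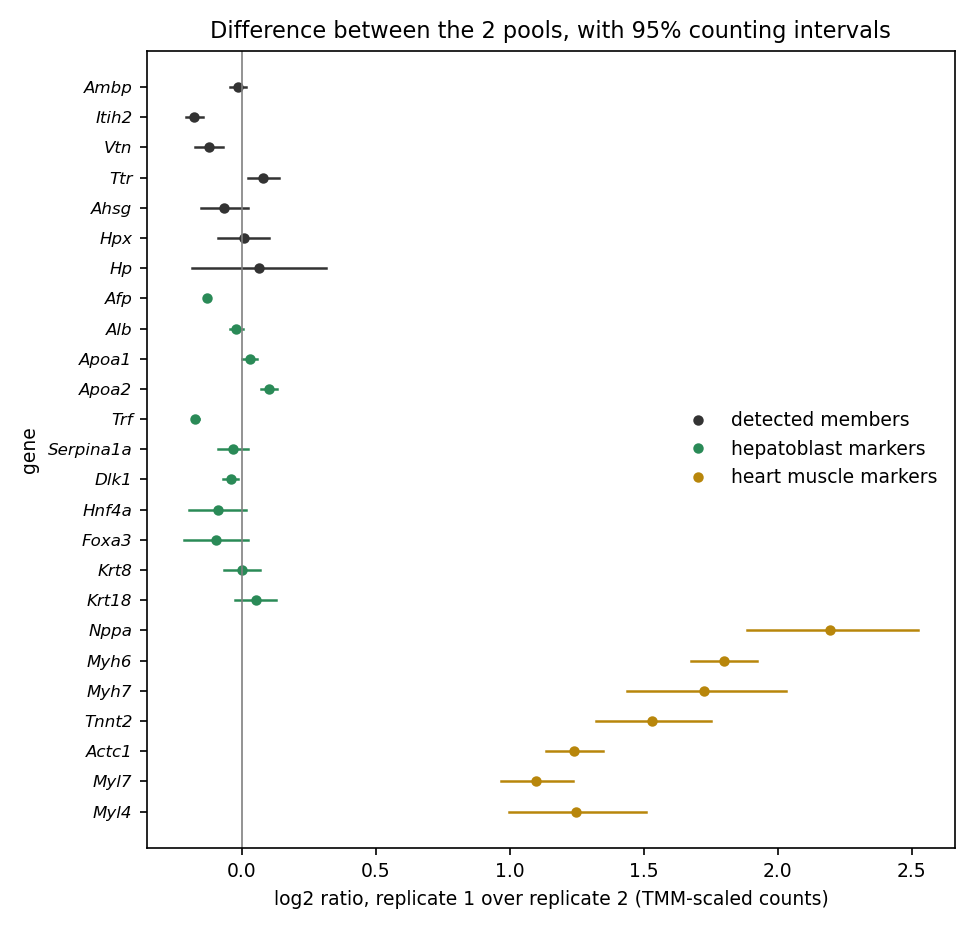
Log2 ratio of replicate 1 over replicate 2 of TMM-scaled estimated counts for the 7 detected genes (dark), 11 hepatoblast markers (green) and 7 heart muscle markers (gold), with 95% counting intervals. The dark points lie between -0.18 and 0.08, close to the range of the green ones, -0.17 for Trf to 0.10 for Apoa2, and all gold points lie above 1.

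Of 16 other acute-phase genes 10 were detected and 6 stayed under 1 TPM in both libraries. Over all 21474 protein-coding genes these numbers were 12165 (56.6%) and 8908, so the list lay near that share. The median level of the 16 was 3.53 TPM in replicate 1 against 4.84 TPM in replicate 2, beside 2.82 and 2.87 TPM over all protein-coding genes. The 3 fibrinogen chains led, Fga at 122 and 147 TPM, Fgb at 134 and 152 TPM, Fgg at 139 and 144 TPM, with complement C3 at 54.8 and 67.3 TPM. Among genes known to be induced in adult mouse liver, levels were mixed. Lcn2 had 6.12 and 7.94 TPM and Apcs, serum amyloid P, 3.91 and 5.75 TPM, whereas Saa1 had 0.84 and 0.70 TPM, Saa2 0.15 and 0.96 TPM, Saa3 0.18 and 0.62 TPM, and Hamp and Serpina3n 0 in both. Their estimated counts were 11 and 8 for Saa1, 2 and 11 for Saa2 and 2 and 6 for Saa3, and Mbl2, a lectin gene, had 4 and 3. Saa1 and Saa2 are near-identical copies, so their single levels are uncertain. Hp was above Saa1 by 9.62-fold in replicate 1 and 11.4-fold in replicate 2. The remaining detected genes of the list were Lbp (10.44 and 10.4 TPM), Saa4 (4.39 and 5.00 TPM), A2m (3.14 and 3.82 TPM) and Crp (2.66 and 4.67 TPM).

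Of 15 genes of interleukin 6 signalling and its partners 10 were detected, beside 56.6% of 21474 protein-coding genes. The kinase Jak1 (61.1 and 66.8 TPM) and Stat3 (43.9 and 42.3 TPM) led, followed by the glucocorticoid receptor Nr3c1 (18.3 and 21.4 TPM) and the interleukin 1 receptor Il1r1 (16.8 and 19.2 TPM). The ligand Il6 had 0 and 3 estimated counts, and the receptors Il6ra (67 and 42 estimated counts) and Osmr (2 and 5) and the cytokines Il1b (5 and 14) and Tnf (14 and 15) were also under 1 TPM in both. The shared receptor chain Il6st had 9.07 TPM in replicate 1 against 11.0 TPM in replicate 2, and the factors Cebpb (10.6 and 11.6 TPM) and Cebpd (8.71 and 9.44 TPM) were detected. These are levels in liver tissue at 1 stage, with nothing to set them against before or after.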

How the data were processed

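Total RNA of 2 pooled embryonic livers was sequenced, and each library came as a gene and a transcript table. Per the labels and the deposited text notes, reads were assigned to GENCODE M4 on mm10. Aligner, quantifier and strand setting: not given in the sources used here. Estimated counts, which a model shares out among genes, were deposited by the authors, and whole-number roundings of them went into edgeR and DESeq2. The authors also deposited TPM, relative to all features with spike-ins included, and FPKM. The deposited isoform percent gave the share of each transcript. Bounds of a credibility interval of TPM, whose level is not given, were read as a score per the file headers.

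Symbols and coordinates came from GENCODE M21 (GRCm38, which is mm10), by Ensembl identifier without version, and all 132 listed symbols matched. Promoters came from RefSeq on GRCm38.p6. Protein sequences were not used here. Log2 ratios between genes used TPM + 0.1. Ratios between pools used counts scaled by TMM (edgeR 4.0.16, R 4.3.3) over mouse genes, a pseudocount of 0.5 and 95% exact binomial intervals. The step was tested on simulated counts that held counting error alone. That test checked the computation and could not show how far the intervals suit real pools. Other steps ran in Python 3.11.15 with scipy 1.17.1 and pandas 2.3.3. Intervals and limits of 3 counts cover counting error only. The labels name no molecular identifiers, so reads may repeat 1 molecule.

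All 10 genes and the genes of the pairs were named. Of each list the 4 with the highest mean TPM and those under 1 TPM in both libraries were named, and of each marker list the highest and lowest. A result that this rule selects is not reported here. Apcs, Lbp, Saa4, A2m, Crp, Tnfaip6, Il6st, Cebpb, Cebpd, Nppa, Hps3, Trf and Apoa2 fall outside it and were named after their values were seen. The 10 genes were taken by name, while the other genes, the lists and the alternatives were chosen with earlier results of these data known. Alternatives were other scalings (DESeq2 1.42.0, spike-ins), other units, pseudocounts, filters and single libraries.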

Additional observations from a re-analysis of the deposited data

How the results depend on the processing

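Of the 315 alternative values computed, most kept their direction and side of the threshold. The summed level of the 10 genes, 1286 TPM on average, was 1226 and 1345 in single libraries, 1474 in TPM over mouse genes alone and 942 in FPKM. Detection of 7 of 10 held in every alternative run. The count of ordered neighbours was 6, 7 without replicate 2 and 8 without replicate 1. In a single library the conditions of same order and of gap between libraries cannot fail, so those counts come from a weaker rule. All genes 2-fold apart numbered 709, but 5141 with no filter on low counts, which adds genes of few reads, and 436 with a pseudocount of 5. With no filter 1 of the 10 genes, Fetub, was 2-fold apart and 2 had an interval above 0. Scaled by spike-ins (factors 1.23 and 0.812), 0 had an interval above 0 and 7 below 0, with log2 ratios of -0.41 for Ttr, -0.48 for Hpx and -0.43 for Hp. In TPM the Ttr ratio was -0.005. The difference of the summed genes relative to Alb, a log2 ratio of -0.03, turned to 0.083 relative to Afp and 0.020 relative to summed hepatoblast markers. On estimated counts, which are not per length, Hpx over Lrp1 was -1.16 and Vtn over Fn1 -1.66, and Ambp and Itih2 were no longer ordered (0.07). In the same unit Vtn was ordered above Ttr (0.33). The cause of the other changes was not tested. No paired analysis was possible because both libraries form 1 group. Leaving out a library gives no difference between pools. Depth limits Cp, Fetub and Orm1, with 14 or fewer counts each.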
